A study of Mus musculus with 5 samples.

Results

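Cyclin-dependent kinase (CDK) inhibitor genes of the INK4 and CIP families were examined in maps of Polycomb chromatin from mouse embryonic stem cells. The 6 genes were Cdkn2a, Cdkn2b, Cdkn2c and Cdkn2d of the INK4 family and Cdkn1a and Cdkn1b of the CIP family, out of 21631 protein-coding genes on chromosomes 1 to 19 and X. They were taken by name, and the peaks over each gene body and the 2 kb on either side of it were collected. The maps came from chromatin immunoprecipitation and sequencing (ChIP-seq) of H2AK119ub in wild-type MPI-II cells, of H2AK119ub in a DDX5 knockout derived from them, and of RYBP in the wild-type cells (antibody against DEDAF, its other name), with 1 library for each. Input libraries of both genotypes were not analysed here. All cells were grown on feeder cells in serum medium with LIF, the MEK inhibitor PD0325901 and the GSK3 inhibitor CH99021. The knockout is a single clone, made with paired guides and a Cas9 nickase in exon 2 of Ddx5, which encodes an RNA helicase, so clone and genotype cannot be told apart. With 1 library per group no difference has a replicate check and no test or p-value is given. Peak lists hold no expression level, so they do not check the knockout label.

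INK4 proteins bind CDK4 and CDK6 and keep D-type cyclins from activating them, which holds the retinoblastoma protein in its growth-restraining state. CIP and KIP proteins bind complexes of cyclin E or cyclin A with CDK2. Polycomb repressive complex 1 places the ubiquitin mark H2AK119ub on histone H2A, and RYBP is a subunit of its variant forms. Silencing of the INK4 locus by Polycomb proteins is a classic observation in fibroblasts and stem cells.

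Wild-type H2AK119ub lay at 2 of the 6 genes, Cdkn2a and Cdkn2c, each with 1 narrow peak. The knockout list held no peak at any of the 6. RYBP lay at 3 genes, Cdkn2a, Cdkn2c and Cdkn1b, and in each it covered an annotated start. Cdkn2b, Cdkn2d and Cdkn1a had no peak in any of the 3 libraries. Whether the 6 genes are Polycomb targets in these cells was not tested. Across all protein-coding genes, with windows built the same way, 27.9% had wild-type H2AK119ub, 23.6% knockout H2AK119ub and 37.6% RYBP, while 52.8% had no peak in any library. The mark was present in the wild type alone at 2 of 6 members against a background of 7.2%, and in the knockout alone at 0 of 6 against 3.0%. Counts of this size over 6 genes carry little weight against those shares, and with peaks of at least 1 kb alone, or windows of 2 kb around annotated starts, 1 member (Cdkn2c) had the wild-type mark. Among the 8511 genes with windows between the shortest and longest member window (6963 to 24147 bp) the shares were 31.1% for the wild-type mark, 24.7% for the knockout mark, 8.84% for the mark in the wild type alone and 34.5% for RYBP.

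**Figure D1:**
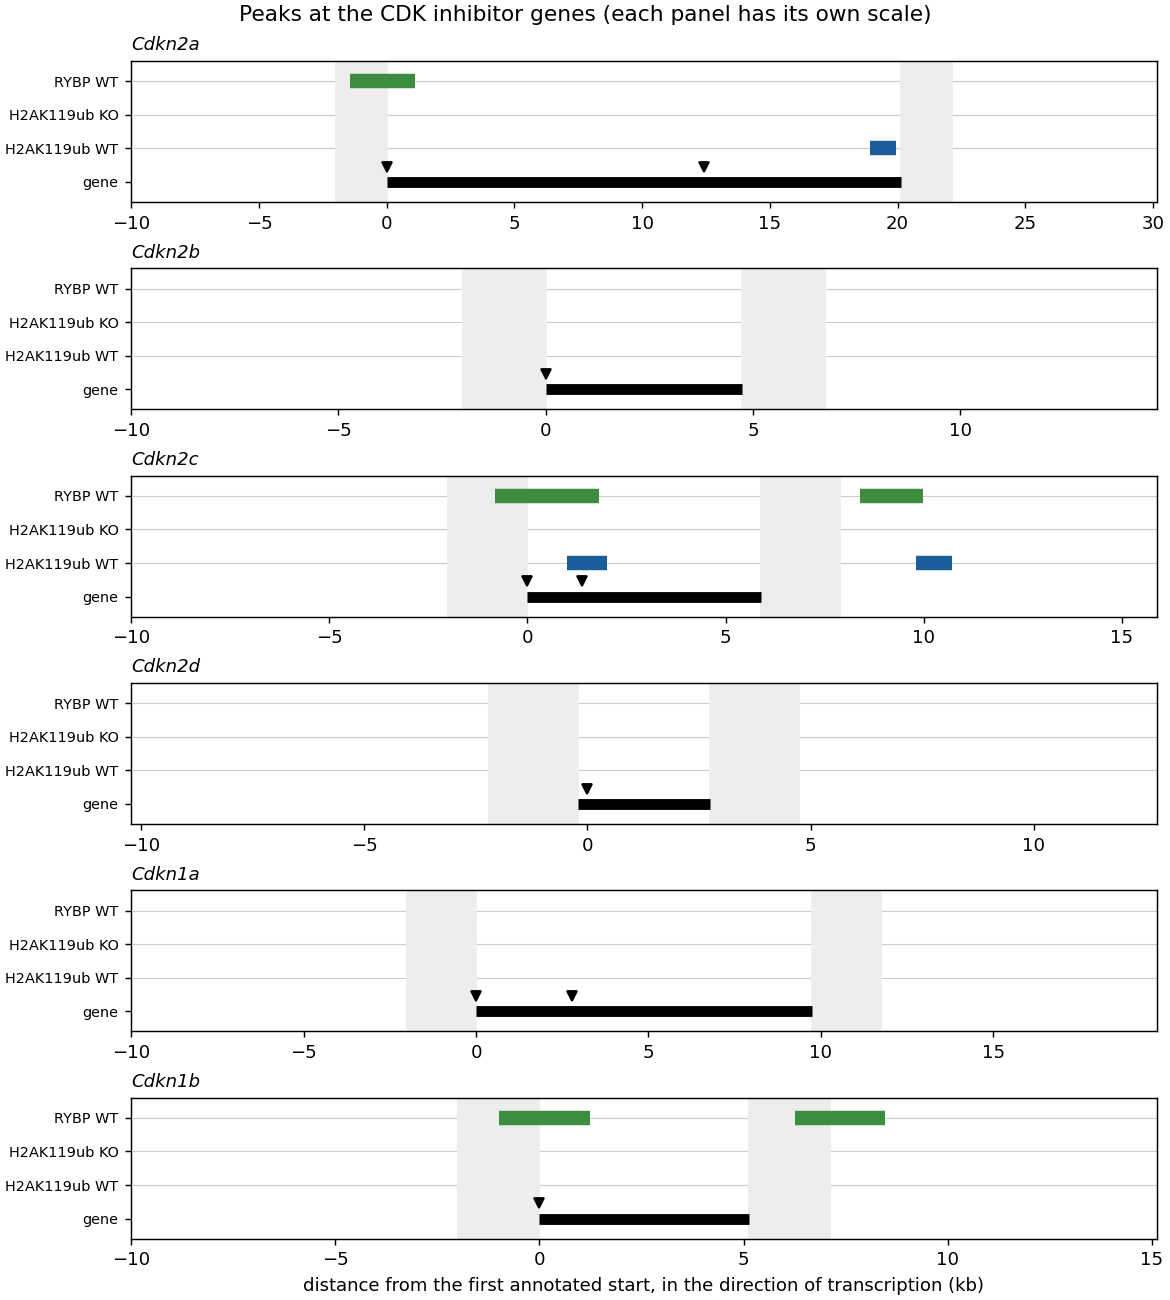
Peaks at the 6 genes, drawn as bars against distance from the first annotated start in the direction of transcription (kb), with 1 row per library, the gene body in black, the 2 kb flanks in grey and annotated starts as triangles. RYBP covers a start at Cdkn2a, Cdkn2c and Cdkn1b, wild-type H2AK119ub appears at Cdkn2a and Cdkn2c, and the knockout row is empty in every panel.

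The DNA just before the starts is shown first, because RYBP covered some starts of these genes and not others. The sequences are the 250 bases before 6 of the 9 starts listed for the members in the RefSeq promoter table of GRCm38.p6 (the mm10 build), written 5′ to 3′ on the transcribed strand with each CpG dinucleotide in capitals. The first 3 come from starts covered by RYBP, and the others from starts with no peak. Cdkn2a lies on the minus strand and has 2 starts, at chr4:89294620-89294869 (before the first, the start of the ARF transcript) and chr4:89282193-89282442 (before the second, the start of the INK4a transcript). The bases before the first start of Cdkn2c are chr4:109666757-109667006 on the minus strand, those of Cdkn1b chr6:134920151-134920400 on the plus strand, those of Cdkn2b chr4:89311033-89311282 on the minus strand, and those of the first start of Cdkn1a chr17:29090729-29090978 on the plus strand.

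Cdkn2a, first start, under RYBP: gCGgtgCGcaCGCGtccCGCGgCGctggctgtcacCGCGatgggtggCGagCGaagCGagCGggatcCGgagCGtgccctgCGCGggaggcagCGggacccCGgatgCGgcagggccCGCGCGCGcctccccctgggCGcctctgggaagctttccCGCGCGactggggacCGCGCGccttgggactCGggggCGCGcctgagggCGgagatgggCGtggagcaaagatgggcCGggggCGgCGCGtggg
Cdkn2c, first start, under RYBP: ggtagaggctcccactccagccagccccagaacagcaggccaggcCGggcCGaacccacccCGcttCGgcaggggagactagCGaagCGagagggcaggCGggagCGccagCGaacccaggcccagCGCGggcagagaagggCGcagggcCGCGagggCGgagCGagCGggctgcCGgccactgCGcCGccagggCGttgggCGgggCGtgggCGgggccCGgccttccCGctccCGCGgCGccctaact
Cdkn1b, under RYBP: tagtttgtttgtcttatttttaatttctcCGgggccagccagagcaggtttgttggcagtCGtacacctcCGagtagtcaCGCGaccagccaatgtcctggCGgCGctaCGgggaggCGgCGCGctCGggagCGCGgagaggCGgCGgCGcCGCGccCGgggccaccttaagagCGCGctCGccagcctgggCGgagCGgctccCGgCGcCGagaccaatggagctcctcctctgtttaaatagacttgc
Cdkn2a, second start, no peak: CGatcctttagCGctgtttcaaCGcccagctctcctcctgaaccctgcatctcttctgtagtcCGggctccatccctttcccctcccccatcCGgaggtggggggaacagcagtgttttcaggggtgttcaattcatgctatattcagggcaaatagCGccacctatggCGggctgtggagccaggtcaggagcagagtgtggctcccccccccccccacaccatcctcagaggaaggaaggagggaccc
Cdkn2b, no peak: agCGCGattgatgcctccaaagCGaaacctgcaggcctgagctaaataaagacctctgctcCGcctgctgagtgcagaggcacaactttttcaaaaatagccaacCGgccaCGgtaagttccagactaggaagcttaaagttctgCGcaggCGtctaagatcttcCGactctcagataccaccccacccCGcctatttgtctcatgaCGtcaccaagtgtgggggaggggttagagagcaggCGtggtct
Cdkn1a, first start, no peak: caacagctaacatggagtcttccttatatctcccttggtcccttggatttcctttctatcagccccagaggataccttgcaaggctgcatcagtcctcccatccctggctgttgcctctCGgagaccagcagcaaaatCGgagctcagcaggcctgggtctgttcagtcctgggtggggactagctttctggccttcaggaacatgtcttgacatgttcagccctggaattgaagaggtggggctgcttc

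The 3 stretches under RYBP hold 40, 29 and 28 CpG dinucleotides, and the others hold 7, 12 and 2. The 3 starts not shown lie inside the annotated span of their own gene, where the bases before them may belong to an exon, and they narrow this contrast. The INK4a start also lies inside its gene, in the intron that follows the first exon of ARF. The second start of Cdkn2c, with 6 in the 250 bases before it, is under RYBP, while Cdkn2d, with 16, and the second start of Cdkn1a, with 19, are not.

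Cdkn2a (gene ID 12578, chromosome 4, 89274473 to 89294619) encodes 2 unrelated proteins from separate starts 12427 bp apart, the CDK inhibitor p16INK4a and ARF, which stabilises p53. RYBP formed a peak of 2534 bp from 89293504 to 89296037, which ran from 1418 bp before to 1115 bp after the first start. That peak also lay over the start of Gm12610, a long noncoding RNA transcribed in the other direction at position 89295180. No library had a peak over the INK4a start at 89282192. Wild-type H2AK119ub did not lie under RYBP at this gene. Its peak of 993 bp, from 89274694 to 89275686, lay 18933 bp or more downstream of the first start and 6506 bp or more downstream of the second, and began 221 bp from the far end of the gene. It shared 0 bp with the RYBP peak. The wild-type mark therefore covered 4.11% of the window of Cdkn2a and RYBP 10.5%, and the knockout covered 0 bp.

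The surroundings of Cdkn2a were almost free of H2AK119ub in both libraries. The nearest knockout peak lay 3.76 Mb away at Adamtsl1, and the span between neighbouring knockout peaks that holds Cdkn2a and Cdkn2b measured 9.53 Mb, with 60 protein-coding genes. The wild-type list had 2 peaks in that span, one of them the peak at Cdkn2a, while RYBP had 16. It was the 19th longest of 60 spans of at least 5 Mb without a knockout peak, which ran from 5.05 to 48.7 Mb. The other 59 held 0 to 6 wild-type peaks with a median of 1, and 0 to 18 RYBP peaks with a median of 6. For its length, the span was rich in RYBP, with 1.68 peaks per Mb where the highest value was 1.78. It held 0.21 wild-type peaks per Mb, where the highest value was 0.968. The wild-type list was thus sparse in these spans as well.

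Cdkn2b (gene ID 12579, chromosome 4, 89306289 to 89311032), which encodes p15INK4b, lies 11.7 kb from Cdkn2a. It had 0 bp of peak in each of the 3 libraries. The RYBP peak at Cdkn2a came within 10.3 kb of it, and the nearest wild-type H2AK119ub peak, again that of Cdkn2a, lay 30.6 kb away. The neighbours therefore differed in these lists, with peaks at Cdkn2a and none at Cdkn2b.

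Cdkn2c (gene ID 12580, chromosome 4, 109660876 to 109666756) encodes p18INK4c and lies 20.4 Mb from Cdkn2a. It was the only member where the mark and RYBP overlapped. RYBP formed a peak of 2630 bp from 109664951 to 109667580, which covered both annotated starts, 1384 bp apart. The wild-type H2AK119ub peak of 1006 bp ran from 109664752 to 109665757, from 999 to 2004 bp downstream of the first start, and covered the second start alone. RYBP shared 807 bp of it. The wild-type mark covered 10.2% of the window of Cdkn2c, RYBP covered 26.6% and the knockout mark 0 bp.

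A second pair of peaks lay past the far end of Cdkn2c and outside the 2 kb flank. There wild-type H2AK119ub covered 900 bp from 109656041 to 109656940 and RYBP 1609 bp from 109656770 to 109658378, both over the long noncoding RNA gene 9630013D21Rik, and they shared 171 bp. The knockout had no peak there either, and its nearest peak to Cdkn2c was 307 kb away. Both wild-type H2AK119ub peaks at this locus were thus without a knockout counterpart.

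Cdkn2d (gene ID 12581, chromosome 9, 21288459 to 21291421) encodes p19INK4d and had 0 bp of peak in all 3 libraries. The nearest peaks of wild-type H2AK119ub, knockout H2AK119ub and RYBP lay 18.6, 18.5 and 17.3 kb away, all at Ap1m2, an adaptor protein gene. This is a place where the mark was present in both genotypes close to a member without reaching it.

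Cdkn1a (gene ID 12575, chromosome 17, 29090979 to 29100722) encodes p21, the best known target of p53 among the inhibitors. It had 0 bp of peak in all 3 libraries. The nearest H2AK119ub peaks, at Rab44, lay 33.2 kb away in the wild type and 30.2 kb away in the knockout, and the nearest RYBP peak lay 137 kb away at Cpne5. Neither of its 2 starts had RYBP.

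Cdkn1b (gene ID 12576, chromosome 6, 134920401 to 134925525) encodes p27, which restrains the cell cycle as cells leave it. RYBP formed a peak of 2242 bp from 134919401 to 134921642, from 1000 bp before to 1241 bp after its start. A further RYBP peak of 2187 bp, from 134926672 to 134928858, lay past the far end of the gene, with 854 bp inside the flank, and ended before the start of the long noncoding RNA gene Lockd at 134929092. RYBP thus covered 33.9% of the window, the highest share of the 6 genes under this count. The rank depended on the 854 bp of the second peak. When 50% of a peak had to lie inside the window, Cdkn1b kept 2242 of 9125 bp. Cdkn2c then had the larger share, with 2630 of 9881 bp. No H2AK119ub peak came near in either genotype. The nearest was 267 kb away in the wild type and 140 kb away in the knockout.

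**Figure D2:**
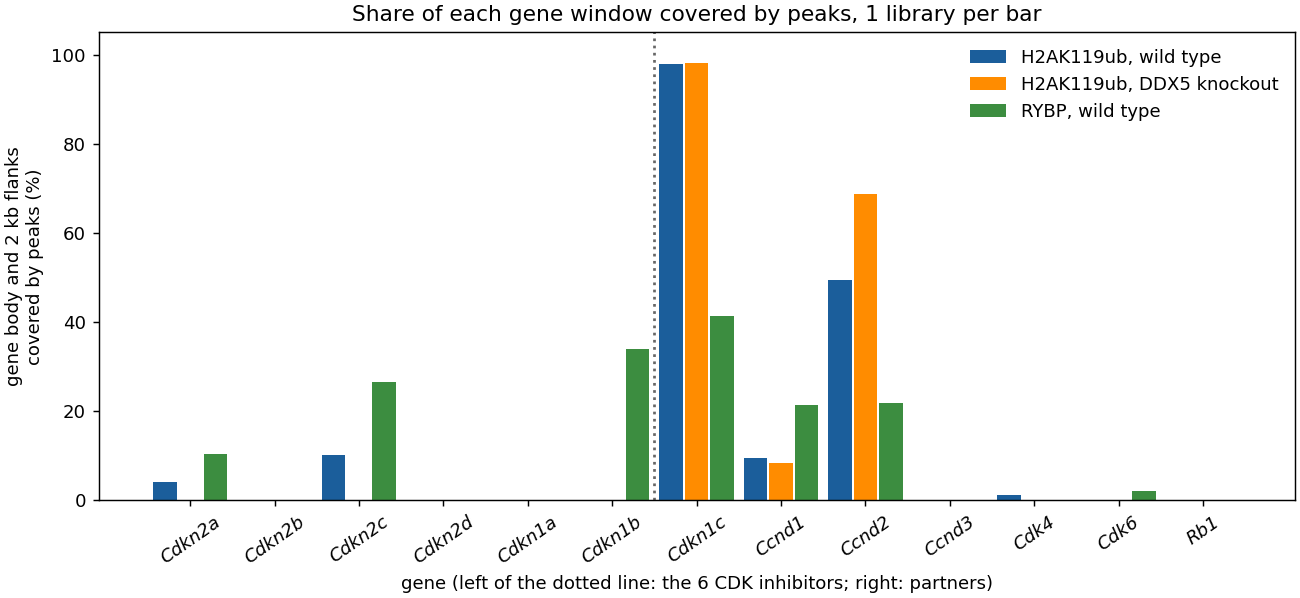
Percent of each gene body with its 2 kb flanks that peaks covered, with 1 bar per library, for the 6 inhibitors (left of the dotted line) and 7 partners (right). The knockout bars of the 6 inhibitors are at 0, while Cdkn1c, Ccnd1 and Ccnd2 carry the mark in both genotypes.

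The absence of a knockout peak at Cdkn2a and Cdkn2c was set beside what other narrow wild-type peaks did. Among wild-type peaks 23.5% were narrower than the one at Cdkn2a and 24.6% narrower than the one at Cdkn2c. Of wild-type peaks from 900 bp to below 1100 bp wide, a knockout peak overlapped 205 of 434 with RYBP, 47.2% (95% Wilson interval 42.6% to 51.9%), and 1060 of 3820 without RYBP, 27.7% (26.4% to 29.2%). The wild-type H2AK119ub peak at Cdkn2c overlapped RYBP and the peak at Cdkn2a did not. The share rose with width, to 98.6% with RYBP and 94.0% without for peaks of 4000 bp or more. Among genes with 900 to 1100 bp of wild-type mark in their window, 245 of 397 had none in the knockout, 61.7% (56.8% to 66.4%), and among those that also had RYBP, 140 of 230, 60.9% (54.4% to 66.9%). Cdkn2a and Cdkn2c were like most genes with so little wild-type mark in this respect. Over all genes marked in the wild type the share without a knockout peak was 25.9% (24.8% to 27.0%). These intervals cover counting error only and treat peaks and genes as independent.

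**Figure D3:**
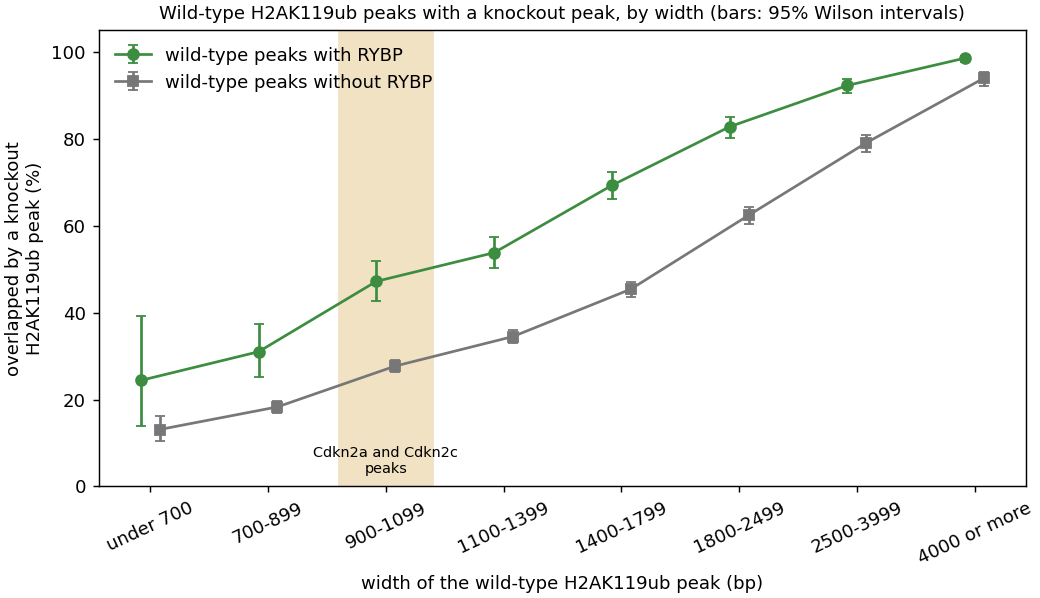
Percent of wild-type H2AK119ub peaks that a knockout peak overlapped, by width of the wild-type peak in bp, for peaks with and without RYBP, with 95% Wilson intervals. The shaded class, which holds the peaks of Cdkn2a and Cdkn2c, lies at 47.2% with RYBP and 27.7% without. The peak of Cdkn2c is among those with RYBP and the peak of Cdkn2a among those without.

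Knockout peaks covered less length than wild-type peaks on most members' chromosomes, as they did over the whole lists (30.6 against 45.9 Mb). The ratio of covered length, knockout to wild type, was 0.57 on chromosome 4, 0.59 on chromosome 9 and 0.56 on chromosome 17, but 1.36 on chromosome 6, where Cdkn1b lies. Within 10 Mb windows it was 0.60 around Cdkn2a and Cdkn2b, from 14.3 to 8.59 kb, and 0.55 around Cdkn2c, where the wild type had 137 peaks and the knockout 109. It was 0.56 around Cdkn2d and 0.57 around Cdkn1a. Around Cdkn1b it was 2.12, from 19.8 to 42.0 kb, with 15 wild-type and 38 knockout peaks in the window. None of these peaks lay at Cdkn1b. Read depth is unknown, and its part in the missing peaks was not tested. The knockout list held 20994 peaks with a median width of 1083 bp and the wild-type list 24235 with a median of 1360 bp.

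Starts were then compared by their CpG content, since a variant Polycomb complex is known to reach CpG islands through its subunit KDM2B. The promoter table holds 21045 starts of 17274 protein-coding genes, of which 9 belong to the 6 members. RYBP covered 4 of these 9 starts against a background of 28.4%, wild-type H2AK119ub 1 of 9 against 7.79%, and knockout H2AK119ub 0 of 9 against 5.9%. Across all starts, RYBP covered 1.27% of those with 0 to 4 CpG dinucleotides in the 300 bases around the start (250 before it and 50 from it on), and the share rose through every class to 69.5% at 40 or more. H2AK119ub showed no such rise. In the wild type it lay over 3.24% of starts with 0 to 4 CpG, 11.8% with 5 to 9 and 6.48% with 40 or more. Classes from 10 to 39 CpG lay between 7.57% and 10.8%.

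Among the 9 member starts, those under RYBP had the higher CpG counts, with an exception at the low end. So few starts carry little weight beside the shares of like starts given below, and the order was not tested. The first start of Cdkn2a had 45 CpG dinucleotides, more than 97.5% of all starts, the first start of Cdkn2c had 33 and that of Cdkn1b 30, and all were under RYBP. Of starts within 2 CpG of these counts, RYBP covered 70.4%, 57.4% and 54.6%. The starts without RYBP had fewer. There were 23 at the second start of Cdkn1a, 22 at Cdkn2d, 18 at Cdkn2b, 12 at the INK4a start of Cdkn2a and 2 at the first start of Cdkn1a. Like starts had RYBP in 45.8%, 44.2%, 39.9%, 29.8% and 1.27% of cases. The exception was the second start of Cdkn2c, with 8 CpG, which lay under the same RYBP peak as the first. Of starts like it, 13.4% had RYBP.

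**Figure D4:**
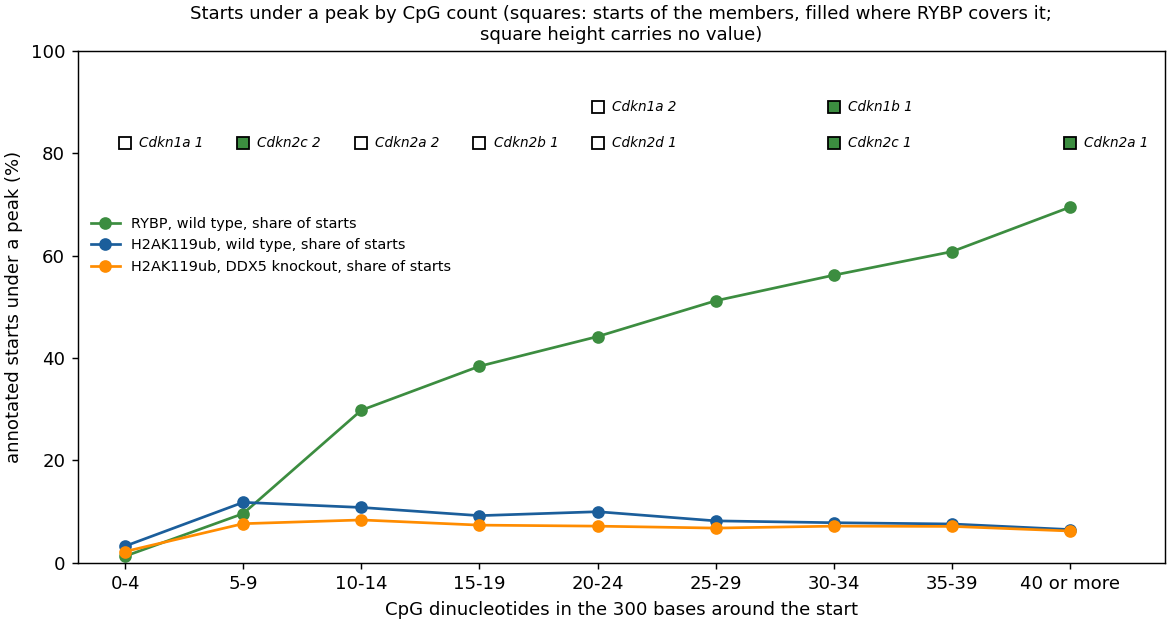
Percent of annotated starts under a peak of each library against the number of CpG dinucleotides in the 300 bases around the start, with the 9 starts of the members as squares above (filled where RYBP covers the start, height without meaning). The RYBP line rises from 1.27% to 69.5%, and the filled squares sit at 30 CpG or more except for the second start of Cdkn2c.

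Exact matches to 6 short motifs were counted on both strands in the same 300 bases. The GC box GGGCGG, a site of Sp1 type, matched 5 times at Cdkn2d, 4 times at the first start of Cdkn2c and 3 times at the first start of Cdkn2a. It matched 2 times at the second start of Cdkn1a, 1 time each at Cdkn2b, Cdkn1b and the INK4a start, and 0 times at the others. It was present in 46.7% of all starts, and its presence did not divide the members by RYBP. CCAAT matched 3 times at Cdkn1b, against a share of 38.5% of starts with any match, and 1 time each at Cdkn2d, the INK4a start and the second start of Cdkn2c. CACGTG matched once, at the second start of Cdkn2c (7.91% of all starts). TATAAA (12.7%), TTTCGCGC (0.456%) and TTTGGCGC (0.641%), the last pair being forms of the E2F site, matched at none of the 9. Each motif was counted on its own, and a base could belong to matches of several motifs.

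Genes with the most similar peaks were sought by the distance between covered lengths over the 3 libraries. For Cdkn2a (993, 0 and 2534 bp for wild-type H2AK119ub, knockout H2AK119ub and RYBP) they were Smg1 (993, 0 and 2518 bp), Izumo4 (1002, 0 and 2593 bp) and Tcp11l2 (924, 0 and 2486 bp). For Cdkn2c (1006, 0 and 2630 bp) they included Izumo4 and Lrrc58 (1008, 0 and 2672 bp). For Cdkn1b (0, 0 and 3096 bp) they were 4933405L10Rik (3088 bp of RYBP), Mllt3 (3087 bp) and Znrf2 (3107 bp), with 0 bp of the mark. The combination at Cdkn2a and Cdkn2c, mark in the wild type alone together with RYBP, was found at 832 genes, 3.85% of all, and that at Cdkn1b, RYBP alone, at 3545 genes, 16.4%.

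The partners of the inhibitors were taken from a list of 41 other cell cycle genes. Of these, 9 had the wild-type mark, 9 the knockout mark and 7 both, while 21 had RYBP and 18 had no peak. Over all protein-coding genes the shares were 27.9% for the wild-type mark, 23.6% for the knockout mark, 37.6% for RYBP and 52.8% for no peak, and the counts over these 41 genes and their subgroups were not tested against them. Cyclins, CDKs and CDC25 phosphatases had the wild-type mark at 4 of 18 genes, the knockout mark at 3 and RYBP at 11. Retinoblastoma family and E2F genes had them at 3, 4 and 7 of 13. The p53 group had the mark in both genotypes at 1 of 5, which was Trp73, and RYBP at 2.

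Cdkn1c, an imprinted gene of the same family that encodes p57, stood at the other end of the range from Cdkn1a and Cdkn1b. H2AK119ub covered 6576 bp (wild type) and 6602 bp (knockout) of the 6721 bp of its window, and RYBP covered 2775 bp. The D-type cyclins, which INK4 proteins oppose, differed among themselves. Ccnd2 had 15334 bp of the mark in wild-type cells against 21334 bp in knockout cells, on chromosome 6 where the knockout covered more. Ccnd1 had 1329 and 1153 bp, and Ccnd3 had no peak. Of the kinases that INK4 proteins bind, Cdk4 had 86 bp of wild-type mark, the edge of a peak in its flank, and none in the knockout, and Cdk6 had RYBP alone, 3952 bp. Rb1 had no peak. The longest wild-type cover among the remaining genes was at Trp73, a p53 relative (46281 bp, and 27636 bp in the knockout), followed by the E2F repressors E2f6 (3031 and 2084 bp) and E2f8 (1812 and 889 bp) and the E2F partner Tfdp1 (1466 and 1497 bp). All of these had RYBP.

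Of 6 stem cell markers, read for the labelled cell type, 1 had wild-type H2AK119ub, 1 knockout H2AK119ub and 2 RYBP. Pou5f1, Nanog, Sox2 and Zfp42 had no peak in any library, and Klf4 had RYBP alone (2113 bp). Esrrb had 31314 bp of the mark in the wild type, 8525 bp in the knockout and 4801 bp of RYBP. Of 8 fibroblast markers, 5 had wild-type H2AK119ub, 4 knockout H2AK119ub and 3 RYBP. Over all genes, the shares to set beside both lists were 27.9%, 23.6% and 37.6%. A peak list gives no expression level, and the share of feeder chromatin in these libraries was not tested.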

How the data were processed

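Peak lists of 3 ChIP-seq libraries were used, H2AK119ub in wild-type and DDX5 knockout cells and RYBP in wild-type cells, grouped by sample title. The submitters' processing notes name Bowtie2 2.2.5, MACS 1.4 and the build mm10. What each did, the threshold for peaks and any use of inputs are not stated there. The authors deposited 1 list per library. The deposited score column is 0 in every row, so only positions were used, and the deposited lists carry no depth. Positions are counted from 1.

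Genes and starts came from RefSeq tables of GRCm38.p6, which have no exons. The start table holds 17274 of 21631 protein-coding genes. A gene counted as marked when a peak shared at least 1 bp with its body or 2 kb flanks, and covered base pairs were summed. A start counted as covered when a peak held that base. No test between groups was made. Shares have 95% Wilson intervals (scipy 1.17.1). The coverage code was tested on simulated layouts. A ratio limit of 1.5 for covered length was not needed between genotypes, since the 2 marked members had 0 bp in the knockout. The same limit set which values counted as moved under the alternatives.

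The members, the cell cycle list and the tests were chosen with earlier results of these data known. All 6 members were named, with the 7 closest partners, the 4 other listed genes with the longest wild-type cover and the 3 genes nearest each member with a peak in covered length. A gene the rule took is not reported here. The classes of peak width and CpG count and the spans without a knockout peak were added after values had been seen. Alternatives tried were 50% of a peak inside the window, merging within 2 kb, flanks of 0, 1 and 5 kb, gene ends alone, peaks not under 1 kb, the same number of widest peaks from both H2AK119ub lists and, added after seeing the data, 2 kb around annotated starts.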

Additional observations from a re-analysis of the deposited data

How the results depend on the processing

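No paired analysis was possible because each group has 1 library and the labels give no replicate numbers; for the same reason no library could be left out. Members with wild-type H2AK119ub, and members with it in the wild type alone, numbered 2 under 7 alternatives and 1 under the other 2, where Cdkn2c was the member that stayed: with peaks of at least 1 kb, which drops the 993 bp peak at Cdkn2a, and, in the alternative added later, with 2 kb around annotated starts, which that peak does not reach. The counts of members with the mark in the knockout (0), in the knockout alone (0) and with RYBP (3) did not change under any of the 9 alternatives run, and the knockout to wild-type ratio of covered length over the members was 0 in each. Covered length at a single member moved by over 1.5 times in 6 cases: RYBP at Cdkn2a and Cdkn1b fell to 1116 and 1242 bp with no flank, wild-type H2AK119ub and RYBP at Cdkn2c rose to 1906 and 4239 bp with 5 kb flanks, and wild-type H2AK119ub at Cdkn2a was 0 bp in the 2 cases above. Without depth or peak scores, a missing peak means only that none was listed.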
